A study of Mus musculus with 18 samples.

Results

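The mitochondrially encoded genes of the mouse were followed here through early forelimb outgrowth, with and without deletion of Esco2. They were taken as every row of the count files that lies on the mitochondrial chromosome, 37 of 55487 genes in all: 13 protein genes, 2 ribosomal RNA genes and 22 transfer RNA genes. The mutant groups were Esco2fl/fl;Prrx1-CreTg/0 embryos on embryonic day E9.5, on E10.5 or on E11.5, each set against Esco2fl/fl controls of the same day. There were 3 RNA-seq libraries in each of the 6 groups, all from forelimb buds. Mutants and controls all carried floxed Esco2, the gene of an acetyltransferase that establishes sister chromatid cohesion, and controls lacked Cre, so that Cre itself had no control. Prrx1-Cre is active in limb mesenchyme, while a whole bud also holds ectoderm, vessels and blood. The labels do not say whether libraries came from separate embryos or litters, and p-values therefore measure only the spread between these libraries.

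Mitochondrial DNA is a small circular genome held in many copies per cell. Its strands are each transcribed into long precursors that are cut apart, largely at the transfer RNAs lying between the coding genes, so that the messenger RNAs of a strand share a promoter and differ in abundance mainly through processing and stability. The 13 proteins are core membrane subunits of the oxidative phosphorylation complexes I, III, IV and V, and all remaining subunits, and every protein that copies, transcribes or translates this genome, are encoded in the nucleus. In bulk samples, fewer cells of a type and less RNA per cell cannot be told apart.

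Pieces of mitochondrial DNA have also been inserted into nuclear chromosomes during evolution, and in this annotation 1 insertion on chromosome 1 holds 7 pseudogenes that match 7 mitochondrial genes almost letter for letter. They lie on the minus strand at chr1:24611535-24616197 of GRCm38, a stretch of 4663 bases. From base 10 of the mt-Co1 copy on, it corresponds to mitochondrial positions 6390 to 11042. The copies are in the same order and at the same spacing to within 1 base. Between the copies of mt-Co2 and mt-Atp6 there are 233 bases on chromosome 1, as many as in mitochondrial DNA, where the gap holds mt-Tk and mt-Atp8. The copies of mt-Co2 (Gm28661, 681 bases), mt-Atp6 (Gm10925, 678 bases), mt-Co3 (Gm28437, 783 bases) and mt-Nd4l (Gm10222, 294 bases) had no differing base. The copy of mt-Nd3 (Gm28438, 345 bases) differed by T3C and that of the last 483 bases of mt-Co1 (Gm29216) by A1066T, with positions counted from 1 at the first base of the mitochondrial gene and the mitochondrial base first. The mt-Nd4 copy (Gm28439) matched the first 876 of 1378 bases and stopped there. Where the results turn on such copies, stretches of gene and copy are given, which show how little they differ. They are from GENCODE M21 transcripts on GRCm38, and read 5′ to 3′ along the gene. In the first 4, the capital is the single differing base. In the mt-Co2 trio, capitals mark bases of the chromosome 2 copy Gm13341 that differ from mt-Co2, 2 in this window against 0 in Gm28661. In mt-Nd4, capitals mark bases past the end of the copy, and in mt-Atp6 they mark the 43 bases shared with mt-Atp8, which overlaps it on the same strand.
mt-Nd3, bases 1 to 33: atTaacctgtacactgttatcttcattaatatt
Gm28438, bases 1 to 33: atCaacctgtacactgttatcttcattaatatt
mt-Co1, bases 1063 to 1096: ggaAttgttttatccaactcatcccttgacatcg
Gm29216, bases 10 to 43: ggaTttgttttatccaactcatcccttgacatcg
mt-Co2, bases 1 to 60: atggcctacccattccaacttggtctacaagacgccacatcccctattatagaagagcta
Gm28661, bases 1 to 60: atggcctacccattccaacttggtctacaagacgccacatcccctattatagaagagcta
Gm13341, bases 1 to 60: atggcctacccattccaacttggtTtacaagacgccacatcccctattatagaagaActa
mt-Nd4, bases 847 to 906: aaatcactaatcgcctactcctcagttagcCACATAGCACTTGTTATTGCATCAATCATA
Gm28439, bases 847 to 876: aaatcactaatcgcctactcctcagttagc
mt-Atp6, bases 1 to 60: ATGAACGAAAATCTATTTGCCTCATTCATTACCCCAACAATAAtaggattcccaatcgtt

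Copies on other chromosomes were less alike. The chromosome 2 copies of mt-Co1 (Gm13340), mt-Co2 (Gm13341) and 510 bases of mt-Nd2 (Gm13339) matched at 97.6%, 95.9% and 96.7% of bases, and a chromosome 13 copy of 954 bases of mt-Nd5 (Gm4076) at 95.2%. No annotated transcript of at least 200 bases at 95% identity or more was found for mt-Nd1, mt-Nd6, mt-Cytb, mt-Rnr1 or mt-Rnr2.

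The position of a gene against the chromosome 1 insertion went with its counted level. Levels are given as CPM, the read counts of a library scaled to a fixed total and corrected with TMM factors, and between genes as CPM per kilobase (kb) of gene. Averaged over the 18 libraries, mt-Co1, the catalytic core of cytochrome c oxidase (complex IV), had 1770.4 ± 406 CPM per kb (SD, n = 18). The complex I subunit gene mt-Nd1 averaged 1335 CPM per kb and mt-Cytb, the cytochrome of complex III, 1252 CPM per kb, and neither was the higher throughout, since mt-Nd1 led in 9 of 18 libraries. Below them came mt-Nd2 at 607, mt-Nd5 at 372 and mt-Nd4 at 276 CPM per kb, all complex I subunits. mt-Nd2 was above mt-Nd5 in 18 of 18 libraries, and mt-Nd5 above mt-Nd4 in 17 of 18. mt-Nd6, the only protein gene on the minus strand of the annotation, averaged 35.0 CPM per kb. All 6 protein genes lying within the copied stretch had lower counted levels than these 7: mt-Co2 averaged 7.56, mt-Atp6 4.66, mt-Co3 3.44, mt-Nd3 2.05, mt-Nd4l 0.894 and mt-Atp8 0.367 CPM per kb.

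**Figure D1:**
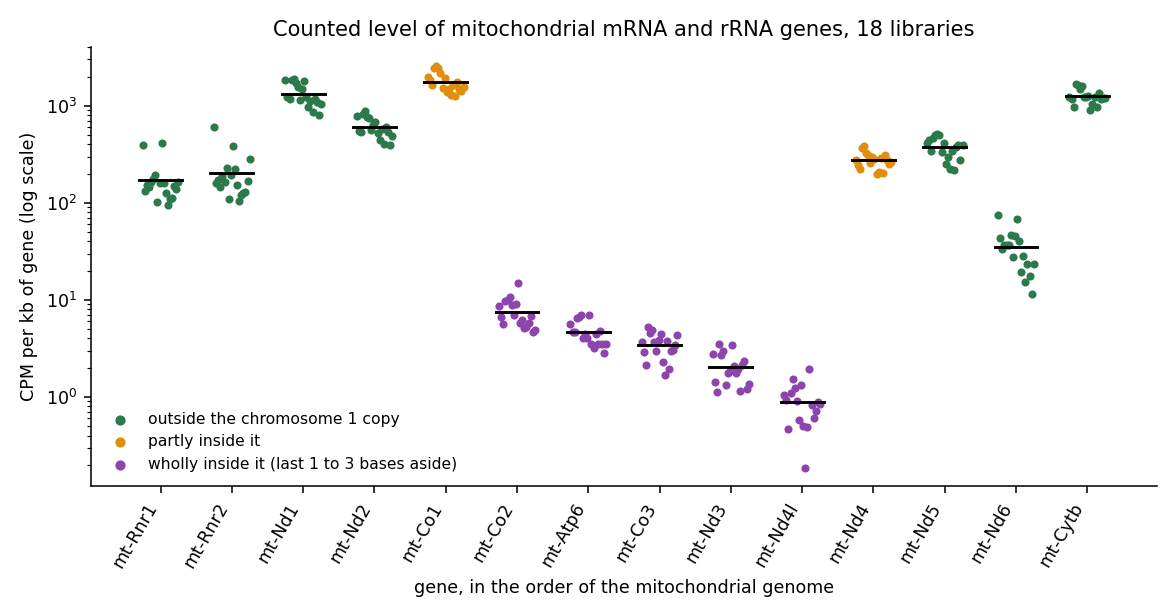
Level of each of the 12 tested mRNA genes and 2 rRNA genes in each of the 18 libraries (points, with a bar at the mean), in CPM per kb on a log axis, with genes in the order of the mitochondrial genome. The 5 tested genes wholly inside the stretch copied to chromosome 1 average between 0.894 and 7.56, and the other 9 genes between 35.0 and 1770.4.

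The step between neighbours was large. mt-Co1 and mt-Co2 are subunits of the same enzyme, adjacent on the same strand, and summed to 2211433 and 4151 counts over the 18 libraries. mt-Co1 ends in the copied stretch, but its first 1062 bases lie outside it, as do the last 502 bases of mt-Nd4. Per the file headers, the counting left out ambiguous pairs, those aligned to more than 1 place or lying in more than 1 gene of their strand, and how much of the low level of mt-Co2, mt-Atp6, mt-Co3, mt-Nd3 and mt-Nd4l came from this was not tested. Their values are therefore used below as differences between libraries, not as amounts of the transcripts. Some pseudogenes were counted above the gene they match: in E10.5 mutants Gm28661 averaged 10.1 CPM and mt-Co2 6.98 CPM, and Gm28437 averaged 10.3 CPM and mt-Co3 3.84 CPM. Copies of genes with bases outside the chromosome 1 stretch were far below them: Gm29216 averaged 7.27 and Gm13340 31.6 CPM against 3833 CPM for mt-Co1, and Gm28439 averaged 3.97 CPM against 498 CPM for mt-Nd4. Of the 11 copies, 0 passed edgeR's quasi-likelihood test between mutants and controls at any stage, with a lowest adjusted p of 0.062 for Gm13340 at E10.5. At an unadjusted p under 0.05 there were 1, 2 and 1 copies by stage, where 1996, 5626 and 6146 of all 20118 genes were. DESeq2 called 0, 1 and 0 copies. Without control E9.5 replicate 1 and mutant E10.5 replicate 3, edgeR called 0, 2 and 0. Of all 20083 genes in that fit, 39, 1858 and 2796 were higher by stage, and 1, 1975 and 3072 lower.

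The ribosomal RNAs of the mitochondrial ribosome were counted below mt-Nd4 and above mt-Nd6 in mean level, mt-Rnr2 (the large subunit RNA) at 203 ± 123 and mt-Rnr1 (the small subunit RNA) at 172 ± 89.1 CPM per kb (SD, n = 18). mt-Rnr2 was above mt-Rnr1 in 15 of 18 libraries. The sources used here do not give how ribosomal RNA was depleted or messenger RNA selected. Transfer RNAs were barely counted. Of the 22 genes, 7 (mt-Tf, mt-Tn, mt-Td, mt-Tk, mt-Th, mt-Ts2 and mt-Tl2) had 0 counts in every library. Counted in at least 1 library, but not past the filter on low counts, were mt-Tv, mt-Tm, mt-Ta, mt-Tc, mt-Ty, mt-Ts1, mt-Tg, mt-Tr and mt-Te. mt-Ti did not pass either, though it had 108 counts and was above 0 in all 18 libraries. The filter was passed by 5 (mt-Tl1, mt-Tq, mt-Tw, mt-Tt and mt-Tp). Of these 5, mt-Tw and mt-Tp are shown for their size, 67 bases each:
mt-Tw, for tryptophan: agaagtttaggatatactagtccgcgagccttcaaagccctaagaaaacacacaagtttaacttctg
mt-Tp, for proline: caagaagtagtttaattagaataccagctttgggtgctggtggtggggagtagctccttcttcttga
In E11.5 mutants mt-Tw had 18, 3 and 8 counts, and in E11.5 controls 4, 0 and 101. The last of these libraries, E11.5 control replicate 3, also held 41 mt-Tt counts, where the other 17 libraries had at most 11. No transfer RNA is described further.

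In all, 19 of the 37 genes passed the filter and were tested: 12 messenger, 2 ribosomal and 5 transfer RNAs. mt-Atp8, which encodes a small subunit of ATP synthase, did not pass, with at most 10 counts in a library.

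Among the 18 libraries, 2 stood apart in measures other than mitochondrial counts. Control E9.5 replicate 1 had the fewest genes detected (22294), and mutant E10.5 replicate 3 had the highest share of haemoglobin counts (1.96%). Counts of calls that change by more than 1.5 times without them are given in both ways.

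As a share of all counts, mitochondrial RNA was small and was higher on average in mutants at each stage. It was 0.922%, 0.704% and 0.662% in E9.5 mutants and 0.662%, 0.620% and 0.542% in E9.5 controls. It was 1.03%, 1.08% and 0.987% in E10.5 mutants and 0.705%, 0.531% and 0.758% in E10.5 controls. It was 0.995%, 0.695% and 0.823% in E11.5 mutants and 0.697%, 0.651% and 0.728% in E11.5 controls. Mutants and controls were apart at E10.5, with every mutant library above every control library, and overlapped at E9.5 and at E11.5. The mean difference, mutant minus control, was 0.368 percentage points at E10.5, and from 0.301 to 0.415 when any 1 of the 6 libraries was left out.

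**Figure D2:**
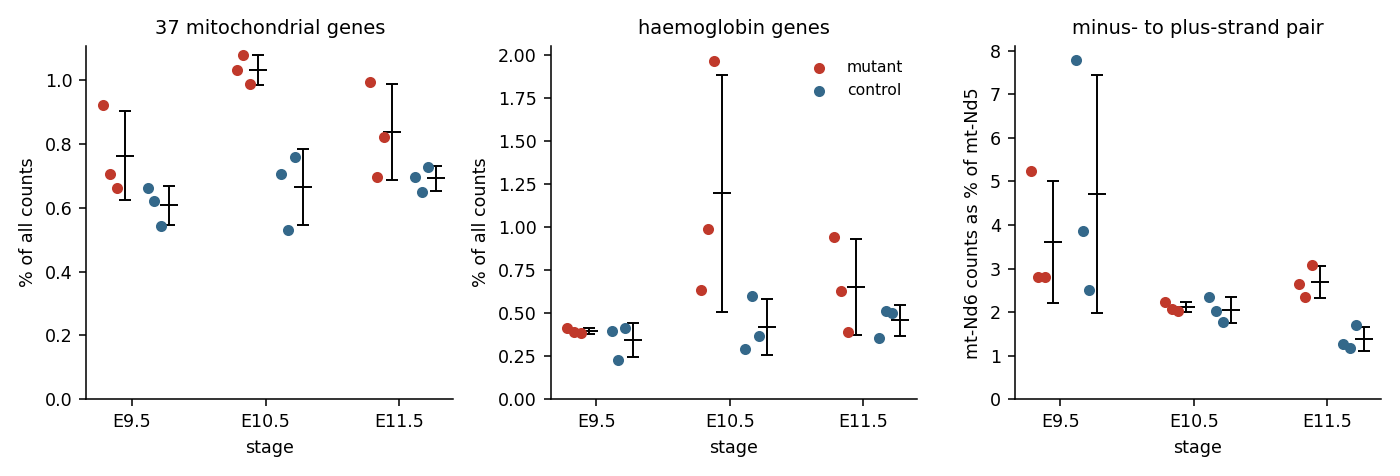
Share of all counts from the 37 mitochondrial genes (left) and from haemoglobin genes (middle), and mt-Nd6 counts as a percentage of mt-Nd5 counts (right), for each library (points) with mean and SD (n = 3), mutants beside controls at each stage. At E10.5 the 3 mutant libraries lie at 0.987% to 1.08% mitochondrial counts, above the controls at 0.531% to 0.758%, and at E11.5 mt-Nd6 to mt-Nd5 is 2.34% to 3.09% in mutants and 1.19% to 1.70% in controls.

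At E10.5, 5 of the 19 tested genes were higher in mutants and 0 were lower (edgeR quasi-likelihood test, Benjamini-Hochberg over 20118 genes, adjusted p under 0.05), where 7.3% of all genes tested were higher and 6.63% lower. The 5 were mt-Co1, mt-Nd1, mt-Nd2, mt-Nd5 and mt-Co2. Without the 2 libraries that stand apart 7 passed, where 1858 of all 20083 genes in that fit were higher and 1975 lower. In it mt-Cytb, mt-Nd4 and mt-Atp6 were added and mt-Nd5 was lost (edgeR adjusted p = 0.106). All 19 log2 changes were positive, and the 12 messenger RNAs had a median of 0.66, from 0.21 for mt-Nd4l to 0.92 for mt-Co2, against a median of 0.02 over all genes. In 14 of the 19 genes every mutant library was above every control library, against 23% of all genes tested. mt-Nd4l was the only messenger RNA whose groups overlapped.

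mt-Co1 had 3765, 3963 and 3770.1 CPM in E10.5 mutants, against 2548, 1964 and 2735 CPM in E10.5 controls. The mutants were close together and all above the highest control, and replicate 2 was the low one among controls. The log2 change was 0.67 ± 0.13 (SE; adjusted p = 0.00316 by edgeR), a 1.59-fold difference, and it passed in all 6 fits that left out 1 E10.5 library. mt-Co1 was the only gene of the 5 for which this held.

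The complex I genes mt-Nd1, mt-Nd2 and mt-Nd5 encode membrane subunits, the first of them near the site where ubiquinone binds. mt-Nd1 had 1774, 1805 and 1634 CPM in E10.5 mutants, against 1079.8, 818 and 1135 CPM in controls, a log2 change of 0.78 ± 0.21 (SE; edgeR adjusted p = 0.0219). mt-Nd2 had 861, 915 and 795 CPM in mutants and 592, 424 and 627 CPM in controls, a log2 change of 0.65 ± 0.19 (SE; edgeR adjusted p = 0.0328). mt-Nd5 had 847, 923 and 929 CPM in mutants and 626, 394 and 687 CPM in controls, a log2 change of 0.66 ± 0.20 (SE; edgeR adjusted p = 0.0335). In these genes too the groups did not overlap and control replicate 2 was lowest. The calls were not stable to single libraries: leaving out 1 E10.5 library kept mt-Nd1 in 2 of 6 fits, mt-Nd2 in 1 and mt-Nd5 in 1, with adjusted p up to 0.110, 0.160 and 0.161.

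mt-Co2, a complex IV subunit that accepts electrons from cytochrome c, had 6.73, 6.90 and 7.30 CPM in E10.5 mutants, against 3.55, 3.63 and 3.91 CPM in controls. These groups were far apart relative to their spread, at a low counted level. The log2 change was 0.92 ± 0.29 (SE; edgeR adjusted p = 0.0456), and it passed in 0 of the 6 fits that left out 1 E10.5 library, with log2 changes from 0.88 to 0.96. Its identical copy Gm28661 averaged 10.1 CPM in mutants and 7.15 CPM in controls (log2 change 0.50 ± 0.37, SE; edgeR adjusted p = 0.413).

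Among the genes that did not pass at E10.5, mt-Cytb averaged 1828 ± 114 CPM in mutants and 1347 ± 223 CPM in controls (SD, n = 3 each), a log2 change of 0.44 ± 0.14 (SE; edgeR adjusted p = 0.052). mt-Nd4, another complex I subunit, averaged 498 ± 40.9 CPM in mutants and 368 ± 80.7 CPM in controls (SD, n = 3 each; edgeR adjusted p = 0.0736). mt-Atp6, the subunit of ATP synthase that forms its proton path, averaged 4.56 ± 0.150 CPM in mutants and 2.899 ± 0.453 CPM in controls (SD, n = 3 each; edgeR adjusted p = 0.098). All 3 had mutants wholly above controls. The adjusted p was 0.353 for mt-Rnr1 and 0.528 for mt-Rnr2, whose log2 changes of 0.63 and 0.51 carried standard errors of 0.42 and 0.48.

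**Figure D3:**
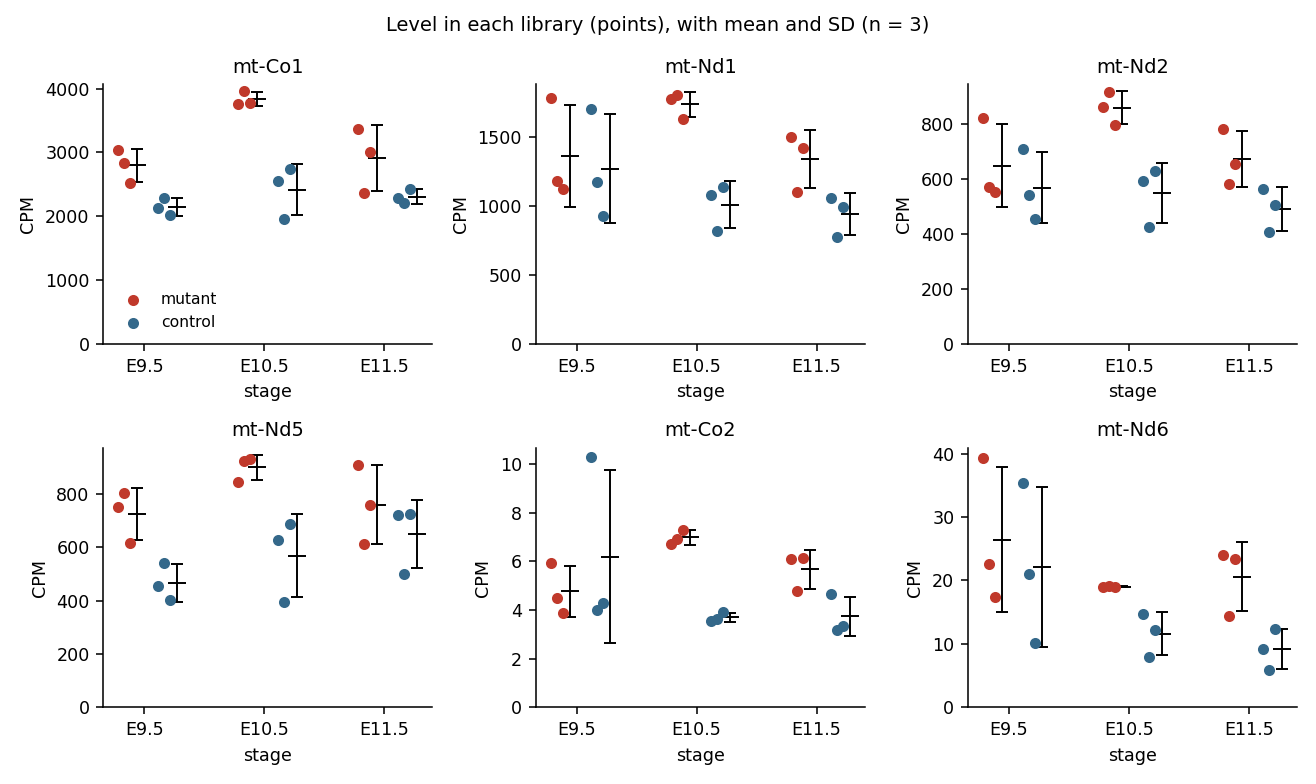
CPM of the 6 genes that passed the test at a stage, in each library (points) with mean and SD (n = 3), mutants beside controls. mt-Co1, mt-Nd1, mt-Nd2, mt-Nd5 and mt-Co2 have mutants wholly above controls at E10.5, and mt-Nd6 has 24.1, 14.4 and 23.4 CPM in E11.5 mutants against 9.25, 5.96 and 12.3 CPM in E11.5 controls.

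The calls at E10.5 moved with the choice of libraries. The labels carry a code for each library whose meaning they do not give, and 4 of the 6 E10.5 libraries share the code 41. Within these 2 mutant and 2 control libraries 1 gene passed, mt-Co1, while mt-Nd1, mt-Nd2, mt-Nd5 and mt-Co2 did not. Their log2 changes were 0.91, 0.81, 0.79 and 0.92, against 0.78, 0.65, 0.66 and 0.92 with every library. Markers of cell types moved as well, at a stage where 7.3% of all genes tested were higher in mutants and 6.63% lower. Of 14 erythroid genes 9 were higher in E10.5 mutants (2 without the 2 libraries that stand apart, where 1858 of all 20083 genes were). The erythroid genes summed to 6417 to 20154 CPM in mutants and 3003 to 6211 CPM in controls. Of 10 surface ectoderm genes 9 were higher (774 to 1091 CPM in mutants and 348 to 510 CPM in controls), of 12 macrophage genes 6 were higher (50.6 to 86.2 CPM in mutants and 28.03 to 38.0 CPM in controls), and of 8 limb mesenchyme genes 4 were lower (824 to 1068 CPM in mutants and 1502 to 1547 CPM in controls). Of 10 endothelium genes 4 were higher (457 to 530 CPM in mutants and 386 to 427 CPM in controls), and of 7 muscle precursor genes 1 was higher. No gene of these lists was at 0 in all 18 libraries. The part of cell composition in the mitochondrial result was not tested.

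At E9.5, 0 mitochondrial genes passed edgeR's test, and 0.179% of all genes were higher and 0.00497% lower in mutants at that stage. At an unadjusted p under 0.05 there were 2 genes of the 19, where 1996 of all 20118 genes were, and DESeq2 called 0. mt-Nd5 had 750, 805 and 617 CPM in E9.5 mutants, against 455, 541 and 403 CPM in E9.5 controls, without overlap (log2 change 0.63 ± 0.20, SE; edgeR adjusted p = 0.438). mt-Co1 had 3039, 2837 and 2527 CPM in mutants, against 2129, 2285 and 2016 CPM in controls, also without overlap (log2 change 0.39 ± 0.13, SE; edgeR adjusted p = 0.497). Groups were apart in this direction in 5.26% of all genes. For the other 12 messenger and ribosomal RNAs the groups overlapped, and log2 changes ran from -0.45 for mt-Nd3 to 1.07 for mt-Nd4l.

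The ribosomal RNAs at E9.5 were highest in replicate 1 of each genotype. mt-Rnr2 had 966, 253 and 270 CPM in E9.5 mutants and 608, 351 and 239 CPM in controls. mt-Rnr1 had 376, 127 and 145 CPM in mutants and 399, 154 and 121 CPM in controls. In both genotypes replicate 1 stood above the other 2 libraries by more than these differed from each other. The same libraries had the highest share of Gm42418, a gene that overlaps nuclear ribosomal RNA sequence, at 0.644% in mutant replicate 1 and 1.11% in control replicate 1, where the other E9.5 libraries had at most 0.372%. Control replicate 1 also had the fewest genes detected of the 18 libraries, 22294.

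At E11.5 a different gene passed. mt-Nd6, a complex I subunit and the only messenger RNA of its strand, had 24.1, 14.4 and 23.4 CPM in E11.5 mutants, against 9.25, 5.96 and 12.3 CPM in E11.5 controls. The lowest mutant was above the highest control, and replicate 2 was lowest in both genotypes. The log2 change was 1.17 ± 0.39 (SE; edgeR adjusted p = 0.0479), and it was higher in 3 of 3 mutants than in any control. In 1 of 19 genes, then, mutants were higher at E11.5 and in 0 lower, where 8.02% of all genes tested were higher and 9.52% lower. The call rested close to the threshold: 2 of the 6 fits without 1 E11.5 library kept it, with adjusted p from 0.0383 to 0.175, and it did not pass without the filter on low counts or once a trend with gene length was removed (log2 changes 1.16 and 0.83). Without control E9.5 replicate 1 and mutant E10.5 replicate 3, 2 genes passed at E11.5, mt-Nd6 and mt-Co2. Of all 20083 genes in that fit, 2796 were higher and 3072 lower at E11.5.

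**Figure D4:**
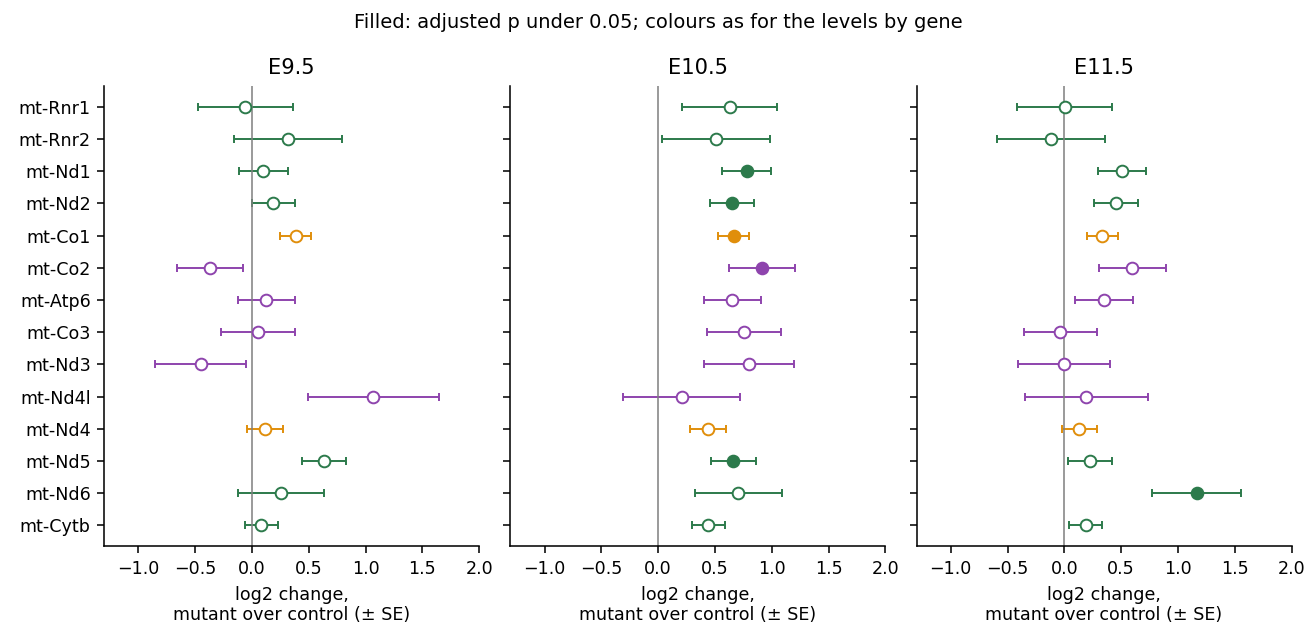
Log2 change, mutant over control, with its SE, for the 12 tested mRNA genes and 2 rRNA genes at each stage, filled where the adjusted p was under 0.05 and coloured by position against the chromosome 1 copy as in the plot of levels by gene. All 14 values are above 0 at E10.5, while at E11.5 mt-Nd6 at 1.17 is the only one that passes.

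Since mt-Nd5 and mt-Nd6 overlap tail to tail by 14 bases on opposite strands, their ratio compares both strands at one place without any scaling to nuclear genes. mt-Nd6 counts were 2.65%, 2.34% and 3.09% of mt-Nd5 counts in E11.5 mutants, against 1.28%, 1.19% and 1.70% in E11.5 controls, and the groups did not overlap. At E10.5 they did, with 2.24%, 2.07% and 2.04% in mutants and 2.36%, 2.03% and 1.77% in controls. At E9.5 the ratio was 5.23%, 2.81% and 2.82% in mutants and 7.77%, 3.87% and 2.51% in controls, highest in the same replicate 1 libraries that were high in ribosomal RNA. The Gm42418 share was also higher in E11.5 mutants, at 0.518%, 0.339% and 0.406%, than in E11.5 controls, at 0.248%, 0.326% and 0.330%. Mitochondrial ribosomal RNA was not, with log2 changes of 0.0041 for mt-Rnr1 and -0.12 for mt-Rnr2. Its counts were 6.20%, 4.23% and 5.96% of mitochondrial messenger RNA counts in E11.5 mutants, against 5.41%, 7.07% and 9.51% in E11.5 controls. Markers of cell types moved at E11.5 too, where 8.02% of all genes tested were higher in mutants and 9.52% lower. Of 12 macrophage genes 9 were higher in E11.5 mutants (126 to 254 CPM summed in mutants and 56.6 to 70.2 CPM in controls), of 10 surface ectoderm genes 8 were higher (699 to 965 CPM in mutants and 340.1 to 562 CPM in controls), of 7 muscle precursor genes 3 were higher (297 to 415 CPM in mutants and 169.6 to 229 CPM in controls), and of 8 limb mesenchyme genes 5 were lower (738 to 1033 CPM in mutants and 1567 to 1684 CPM in controls). Of 10 endothelium genes 2 were higher and 1 was lower (341 to 415 CPM summed in mutants and 366 to 403 CPM in controls). Of 14 erythroid genes 0 passed by edgeR, 0 at an unadjusted p under 0.05 and 0 by DESeq2 (3996 to 9290.5 CPM summed in mutants and 3567 to 5056 CPM in controls). Of all 20118 genes, 6146 were under that unadjusted p at E11.5. The part of the Gm42418 share and of cell composition in the mt-Nd6 difference was not tested.

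The other messenger RNAs at E11.5 had smaller differences. mt-Nd1 averaged 1341 ± 210 CPM in mutants and 942 ± 149 CPM in controls (SD, n = 3 each), a log2 change of 0.51 ± 0.21 (SE; edgeR adjusted p = 0.114). mt-Nd2 averaged 672 ± 101 CPM in mutants and 491 ± 78.5 CPM in controls (SD, n = 3 each; edgeR adjusted p = 0.118), and mt-Co1 2911 ± 514 CPM in mutants and 2307 ± 114 CPM in controls (SD, n = 3 each; edgeR adjusted p = 0.098). Mutants were wholly above controls for mt-Nd1 and mt-Nd2 but not for mt-Co1. Over the 19 genes mutants were wholly above controls for 6, against 19.8% of all genes tested. The median of the 12 messenger RNAs was 0.28, against 0.01 over all genes.

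Whether the mutant effect itself differed between stages was tested in the same fit. No mitochondrial gene passed for E10.5 minus E9.5, E11.5 minus E10.5 or E11.5 minus E9.5, with lowest edgeR adjusted p of 0.105, 0.674 and 0.154. At an unadjusted p under 0.05 there were 3, 0 and 1, where 4422, 1705 and 5140 of all 20118 genes were. DESeq2 called 1, 0 and 0 mitochondrial genes. Over all genes, 0.925% passed upward and 1.29% downward for the first of these differences, 0.00497% and 0.0696% for the next, and 2.81% and 3.61% for the last. The presence of 5 calls at E10.5 and of 1 at E11.5 is thus not shown to be a difference between stages.

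Between stages, 3 genes rose in mutants at E10.5 relative to mutants at E9.5, where 9.63% of all genes rose and 4.4% fell. mt-Co1 averaged 3833 ± 113 CPM in E10.5 mutants and 2801 ± 258 CPM in E9.5 mutants (SD, n = 3 each), a log2 change of 0.45 (edgeR adjusted p = 0.0318). mt-Nd4 averaged 498 ± 40.9 CPM in E10.5 mutants and 342 ± 36.0 CPM in E9.5 mutants (log2 change 0.54, edgeR adjusted p = 0.027), and mt-Cytb 1828 ± 114 CPM in E10.5 mutants and 1287 ± 162 CPM in E9.5 mutants (log2 change 0.51, edgeR adjusted p = 0.0261). With 1 library left out in turn the count was 0 to 4. In controls the same genes averaged 2416 ± 402, 368 ± 80.7 and 1347 ± 223 CPM at E10.5 against 2144 ± 135, 316 ± 64.3 and 1216 ± 197 CPM at E9.5. By edgeR, 0 mitochondrial genes passed in controls for E10.5 against E9.5, where 15% of all genes rose and 12.5% fell, and mt-Rnr1 had the lowest adjusted p (0.0522, log2 change -1.16). Likewise 0 passed for E11.5 against E10.5 in mutants (2% of all genes rose and 0.89% fell) and in controls (6.6% rose and 2.89% fell). At an unadjusted p under 0.05 these 3 comparisons had 5, 3 and 2 genes, where 7947, 2642 and 4634 of all 20118 genes were. DESeq2 called 3, 0 and 1 mitochondrial genes.

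As parts of the mixture of mitochondrial messenger RNA, mt-Co1 made up 31.0% to 40.5% of the counts of the 13 protein genes in the 18 libraries, mt-Cytb 17.2% to 24.3%, mt-Nd1 13.8% to 24.8%, mt-Nd5 6.62% to 11.3%, mt-Nd2 7.25% to 10.3% and mt-Nd4 4.58% to 6.11%. The minor mt-Nd6 varied more in proportion, at 0.106% to 0.514%, as did mt-Co2, at 0.0524% to 0.150%. Of the 13 shares, only those of mt-Nd1, mt-Cytb and mt-Nd4 separated the genotypes at E10.5. mt-Nd1 was 18.3%, 17.9% and 17.5% of these counts in E10.5 mutants, against 16.2%, 16.4% and 15.8% in controls. mt-Cytb was 19.6%, 18.8% and 18.2% in mutants, against 21.1%, 22.05% and 21.4% in controls, and mt-Nd4 was 5.26%, 5.28% and 4.86% in mutants, against 5.97%, 5.53% and 5.98% in controls. mt-Nd1 thus made up more, and mt-Cytb and mt-Nd4 less, of the mixture in every E10.5 mutant. At E11.5 the shares of mt-Nd1 and mt-Nd4 were apart in the same directions, with mt-Nd1 at 17.0% to 18.4% in mutants against 13.8% to 16.6% in controls. mt-Nd4 was at 4.84% to 5.50% in E11.5 mutants against 5.61% to 6.11% in controls, and mt-Cytb overlapped. The mt-Nd6 share was also apart at E11.5, at 0.222% to 0.304% in mutants against 0.106% to 0.192% in controls. At E9.5 no share was apart, and mt-Nd1 averaged 18.7% in mutants and 20.8% in controls, the opposite direction. There mt-Cytb averaged 17.9% in mutants and 20.3% in controls, and mt-Nd4 4.76% and 5.23%. Shares of one mixture are not independent of each other, and they were given no test.

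The nuclear partners of these genes were taken from lists of subunits and factors; their difference from the mitochondrial genes was not tested. Of 75 tested nuclear subunits of complexes I to V, 0 passed at E9.5 and at E10.5 by edgeR (43 and 5 at an unadjusted p under 0.05, 0 and 2 by DESeq2), and 3 were higher in mutants at E11.5: Cyc1 (cytochrome c1 of complex III), Atp5b (the catalytic beta subunit of ATP synthase) and Atp5g1 (a subunit of its membrane ring). Cyc1 had 231, 284 and 208 CPM in E11.5 mutants, against 165, 168 and 157 CPM in controls (log2 change 0.56 ± 0.15, SE; edgeR adjusted p = 0.0136). Their median log2 change was 0.16 at E10.5, with 69 of 75 positive, and 0.18 at E11.5, with 65 of 75 positive. It was -0.43 at E9.5, with 75 of 75 negative, but 0.01 without control E9.5 replicate 1 and mutant E10.5 replicate 3. Leaving these 2 out gave 0, 15 and 33 subunits higher by stage. Of all 20083 genes then tested, 1858 were higher at E10.5 and 2796 at E11.5, against 1469 and 1613 of 20118 with every library. Over all genes tested, with every library kept, 0.179%, 7.3% and 8.02% were higher by stage. At an unadjusted p under 0.05 there were 1996 of all 20118 genes at E9.5 and 5626 at E10.5.

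Proteins of the mitochondrial ribosome, which translates the 13 messenger RNAs, were higher in mutants in 0, 5 and 14 of 77 cases by stage, and in 0, 29 and 50 without the same 2 libraries, where 1858 of all genes were higher at E10.5 and 2796 at E11.5. With all libraries, the share over all genes was 7.3% at E10.5 and 8.02% at E11.5. Mrps18b had 33.1, 31.98 and 34.7 CPM in E10.5 mutants, against 20.5, 19.2 and 24.3 CPM in controls (log2 change 0.64 ± 0.13, SE; edgeR adjusted p = 0.00396). Mrpl12 had 146, 190.4 and 156 CPM in E11.5 mutants, against 92.5, 91.1 and 78.6 CPM in controls (edgeR adjusted p = 0.00643). Their median log2 change was -0.29, 0.22 and 0.30 by stage, and 0.01 at E9.5 without the 2 libraries.

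Of 25 genes for processing and stability of mitochondrial RNA, 0, 3 and 10 were higher in mutants at the 3 stages, where 0.179%, 7.3% and 8.02% of all genes were. Tbrg4, a FASTK-family protein of mitochondrial RNA metabolism, had 134, 139 and 133 CPM in E10.5 mutants, against 96.4, 85.9 and 101 CPM in controls (log2 change 0.52 ± 0.08, SE; edgeR adjusted p = 0.000556). At E11.5 it had 107, 108 and 119 CPM in mutants, against 68.9, 64.4 and 60.3 CPM in controls (log2 change 0.79 ± 0.09, SE; edgeR adjusted p = 1.34e-05). Rexo2, an exonuclease that removes short RNAs, was higher at E10.5 (log2 change 0.67), and Pus1, a pseudouridine synthase acting on transfer RNA, at E11.5 (log2 change 0.83). Lrpprc, which stabilizes mitochondrial messenger RNA, averaged 97.7 ± 5.78 CPM in E10.5 mutants and 106 ± 4.09 CPM in controls (SD, n = 3 each; edgeR adjusted p = 0.571).

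Of 18 genes that transcribe and copy mitochondrial DNA, 1 was higher at E10.5 (Top1mt, the mitochondrial topoisomerase, 10.3 ± 0.988 CPM in mutants and 5.63 ± 0.454 CPM in controls, SD, n = 3 each) and 1 at E11.5 (Twnk, the replicative helicase, log2 change 0.36), where 7.3% and 8.02% of all genes were higher. Without the 2 libraries that stand apart, 2 of the 18 were higher and 2 lower at E11.5. Of all genes, 2796 were then higher and 3072 lower, against 1613 and 1916 with every library. Tfam, which packages mitochondrial DNA and is needed to start its transcription, averaged 86.3 ± 5.43 CPM in E10.5 mutants and 84.0 ± 0.331 CPM in controls (SD, n = 3 each; edgeR adjusted p = 0.855). Polrmt, the mitochondrial RNA polymerase, averaged 58.9 ± 0.623 CPM in E10.5 mutants and 64.9 ± 2.33 CPM in controls (SD, n = 3 each; edgeR adjusted p = 0.269). Neither passed at E9.5 or E11.5.

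Of 9 regulators of mitochondrial biogenesis, 2 rose and 2 fell at each of the later stages. Over all genes tested, 7.3% were higher and 6.63% lower in mutants at E10.5, and 8.02% and 9.52% at E11.5. Esrra, a nuclear receptor that drives oxidative metabolism genes, had 35.2, 40.6 and 35.3 CPM in E10.5 mutants, against 16.6, 17.2 and 18.3 CPM in controls (log2 change 1.09 ± 0.13, SE; edgeR adjusted p = 4.51e-05), and was as much higher at E11.5 (log2 change 1.12). Ppargc1a, a coactivator of the same programme, had 2.59, 3.54 and 2.77 CPM in E10.5 mutants, against 5.56, 5.03 and 5.44 CPM in controls, and fell by 0.85 on the log2 scale (edgeR adjusted p = 0.0272). Esrrg, a related receptor, was lower at both stages, and the coactivators Ppargc1b and Pprc1 were higher at E10.5 and at E11.5 in turn. Of 15 genes for import, matrix chaperones and the outer membrane, 0, 3 and 9 were higher from E9.5 to E11.5, where 0.179%, 7.3% and 8.02% of all genes were. Without the 2 libraries that stand apart these counts were 0, 7 and 13. All genes higher then numbered 1858 at E10.5 and 2796 at E11.5, against 1469 and 1613 with every library. Among the genes higher were Hspe1, the matrix co-chaperonin (log2 change 0.71 at E10.5 and 0.99 at E11.5), and Hspd1, its partner (0.90 at E11.5).

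**Figure D5:**
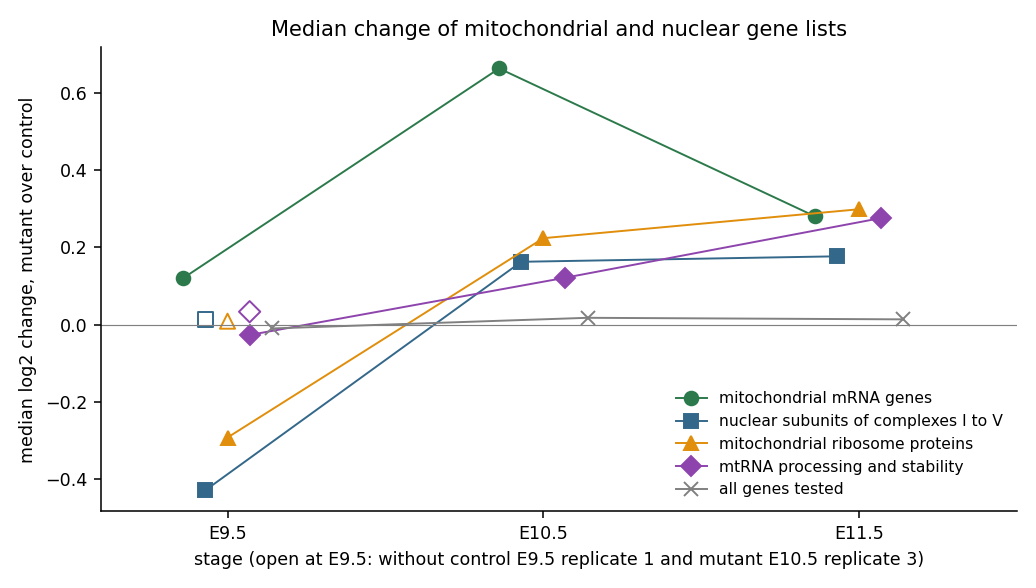
Median log2 change, mutant over control, at each stage for the 12 tested mitochondrial mRNA genes, 3 nuclear gene lists and all genes tested, with open symbols at E9.5 for the nuclear lists without control E9.5 replicate 1 and mutant E10.5 replicate 3. Mitochondrial messenger RNA is at 0.12, 0.66 and 0.28 by stage, while nuclear subunits of complexes I to V are at -0.43 (0.01 without those libraries), 0.16 and 0.18.

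Of the targeted gene, Esco2 RNA averaged 17.6 ± 2.26, 21.0 ± 1.85 and 22.9 ± 0.732 CPM in mutants by stage, against 26.8 ± 1.598, 30.4 ± 2.91 and 27.4 ± 5.96 CPM in controls (SD, n = 3 each). It was lower by the test at E10.5 (edgeR adjusted p = 0.0200) and did not pass at E9.5 (0.162) or E11.5 (0.238), and the counts cover the whole gene, including any part outside the deletion. Library totals ran from 36390557 to 53505350 counts in mutants and from 35034237 to 56230058 counts in controls. The hindlimb genes Tbx4 and Pitx1 summed to 1.42 to 16.1 CPM in the 18 libraries, while the 8 limb mesenchyme genes, Tbx5 of the forelimb among them, summed to 738 to 1639 CPM in mutants and 1502 to 1899 CPM in controls.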

How the data were processed

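Counts per gene were deposited for each library; per the file headers the authors made them with featureCounts 1.6.4, paired, reverse-stranded, over GENCODE M22 exons on mm10, and per the submitters' processing notes after cutadapt and STAR, with versions not given in the sources used here. A second deposited table holds the authors' log2 FPKM of 14692 genes, 13 of them mitochondrial, and served as an alternative only. Libraries held 35034237 to 56230058 counts. Genes passing filterByExpr (20118) were fitted with edgeR 4.0.16 in R 4.3.3 (robust quasi-likelihood, TMM, 6 group coefficients, Benjamini-Hochberg, threshold 0.05); the SE is the log2 change divided by the root of F. The fit was tested on simulated data. GENCODE M21 transcripts were searched with blastn 2.17.0 (at least 200 bases at 95%) for copies, because no genome was used here. All mitochondrial genes are named; of each nuclear list, the genes with the lowest adjusted p in each direction, plus Tfam, Polrmt, Lrpprc and Ppargc1a. Members and lists were chosen with earlier results of these data known. Symbols were matched for 55394 of 55487 identifiers.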

Additional observations from a re-analysis of the deposited data

How the results depend on the processing

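Counts of mitochondrial genes called moved as follows. At E10.5, 5 passed in the edgeR fit, against 8 with a replicate block, 10 with each stage fitted alone and 1 within the libraries coded 41, and 1 to 9 with 1 library left out. At E11.5, 1 passed, against 3 with a replicate block, 3 with each stage fitted alone, 2 without control E9.5 replicate 1 and mutant E10.5 replicate 3, 0 with no filter on low counts, 0 with a length trend removed, and 0 to 3 with 1 library left out. For the mutant effect at E10.5 minus E9.5, 0 passed, against 1 by DESeq2 and 0 to 1 with 1 library left out, which was also the range for E11.5 minus E9.5 and for mutants at E11.5 against E10.5. For controls at E10.5 against E9.5, 0 passed, against 1 with DESeq2 size factors, 3 with a length trend removed, 3 by DESeq2, 2 from the authors' log2 FPKM, and 0 to 3 with 1 library left out. For controls at E11.5 against E10.5 DESeq2 gave 1, and for mutants at E10.5 against E9.5 leaving out 1 library gave 0 to 4. At E9.5 every alternative gave 0. The replicate block rests on the numbers alone. Same-numbered libraries of a stage correlated between -0.15 and 0.18, and differently numbered ones between -0.21 and 0.26. The numbers were therefore not taken to pair samples. The highest value, 0.26, was between mutant replicate 3 and control replicate 1 at E11.5, which share a library code. At E9.5, mutant replicate 1 and control replicate 2 also share a code, and they correlated at -0.13. A pairing by code was not tested. A block by number alone for comparisons between stages was added after seeing the data and left their counts as they were. The cause of these shifts was not tested.

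Of the log2 changes of 14 messenger and ribosomal RNAs, 356 of 375 alternative values at E9.5, 331 of 390 at E10.5 and 335 of 376 at E11.5 kept direction and side of the threshold, and 19, 2 and 20 changed sign. No gene past the threshold changed sign. Outside leave-one-out, mt-Rnr1 at E9.5 became 0.21 with a length trend removed and 0.64 without the 2 libraries that stand apart, where mt-Co2 became 0.21. mt-Nd4l at E10.5 became -0.061 within the libraries coded 41. At E11.5, mt-Rnr1 became -0.041 with a replicate block and -0.19 with a length trend removed, mt-Nd4l -0.21 with a length trend removed, and mt-Co3 0.020 from the log2 FPKM. mt-Nd3 at E11.5 became 0.0069 with DESeq2 size factors, 0.044 with a replicate block, 0.0056 with each stage fitted alone, 0.0051 by DESeq2 and 0.10 from the log2 FPKM. Without the 2 libraries, the E9.5 median of nuclear subunits of complexes I to V became 0.013 and that of mitochondrial ribosome proteins 0.0090.

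With 1 library left out in turn, log2 changes that changed sign ran over these ranges. At E9.5 they were mt-Rnr1 -0.72 to 0.64, mt-Rnr2 -0.61 to 0.74, mt-Nd1 -0.14 to 0.37, mt-Nd2 -0.017 to 0.38, mt-Co2 -0.60 to 0.21, mt-Atp6 -0.074 to 0.57, mt-Co3 -0.21 to 0.54, mt-Nd6 -0.14 to 0.76, mt-Cytb -0.016 to 0.22, nuclear subunits of complexes I to V -0.60 to 0.012 and mitochondrial ribosome proteins -0.44 to 0.0089. At E10.5 it was mt-Nd4l -0.091 to 0.86. At E11.5 they were mt-Rnr1 -0.20 to 0.22, mt-Rnr2 -0.35 to 0.27, mt-Co3 -0.15 to 0.13, mt-Nd3 -0.18 to 0.35 and mt-Nd4l -0.12 to 0.45.

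mt-Atp8 and 17 transfer RNAs had too few counts to test, and why was not tested. With 3 libraries a group, a log2 change needed to be large against standard errors of 0.13 to 0.57 for the messenger RNAs.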
